A study of Mus musculus with 8 samples.

Results

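The 10 genes described here are Eef1a1, Eef1b2, Eef1d, Eef1g, Eef2, Eif3e, Eif3f, Eif3h, Eif4b and Tpt1. They were chosen as translation factors, and Tpt1 beside them, whose mRNAs are known for a terminal oligopyrimidine (TOP) tract. The members and the lists below were chosen with earlier results of these data known. Their counts beside those of all genes are therefore descriptions, not tests of the class. All 10 were among the 32499 genes of the count table, and all 10 passed the filter on low counts, as did 12970 genes in all. RNA was measured in mouse pre-B cells, B lineage precursors derived from C57BL/6 bone marrow that lacks Arf (Arf-/-), a tumour suppressor product of the Cdkn2a locus. The cells received lentivirus carrying HA-tagged TAF15-ZNF384, HA-tagged TCF3-ZNF384, HA-tagged full-length ZNF384 or the empty vector, and were sorted for GFP. Each of the 4 groups had 2 libraries. ZNF384 is a transcription factor with C2H2 zinc fingers, and in some acute leukaemias translocations join it to partners such as TAF15 and TCF3. All groups share the Arf-/- background, the strain and the sort. The labels name neither the promoter that drives the constructs nor the number of clones in a culture, and the age of the animals is not given in them. The series design calls the replicates biological but the labels do not say whether they were separate transductions, so the p-values measure only the spread between these libraries. In bulk RNA, fewer cells of a type and less RNA per cell cannot be told apart.

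The elongation factors move the ribosome along an mRNA. eEF1A, the product of Eef1a1, brings each aminoacyl-tRNA to the ribosome in its GTP-bound form, the eEF1B complex (Eef1b2, Eef1d and Eef1g) exchanges its spent GDP for GTP, and eEF2 carries out translocation. At initiation, eIF3 is a multi-subunit scaffold on the small ribosomal subunit, and eIF4B stimulates the helicase eIF4A that unwinds the leader of an mRNA. The mRNAs of these factors share with those of the ribosomal proteins a C at the cap followed by an unbroken run of pyrimidines. This tract ties their translation to the kinase mTORC1 and to the RNA-binding protein LARP1. RNA-seq counts measure the abundance of these mRNAs, not their translation.

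The tract is what names the class, so the annotated starts of the members were read first. Of the 10 members, 6 were matched to RefSeq promoters (build GRCm38.p6), with 250 bases before and 50 after the annotated start, and Eef1d, Eef1g, Eif3e and Eif3h were not matched. For 5 of the 6, all but Eif3f, 10 GENCODE vM1 transcripts (build mm9) were read as well, over at most the first 100 bases of a 5′ UTR of at least 20 bases. The lines below give, for each of the 6, the 30 bases around its longest run of pyrimidines that opens with a C, in capitals, with each name followed by the source.
Eef1a1, RefSeq, positions -15 to 15: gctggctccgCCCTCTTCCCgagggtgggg
Eef1b2, transcript Eef1b2-008, bases 1 to 30: agCTCCCCgttccagccttcgccatgggat
Eef2, RefSeq, positions 6 to 35: cgtcagcggtCTCTTCCgccgcagccgccg
Eif3f, RefSeq, positions -14 to 16: ctgttctaggCTCTCTCTCTTTCTCggcaa
Eif4b, transcript Eif4b-201, bases 1 to 30: cctttgcgttCTCTCTCCCTCTCCCaacat
Tpt1, transcript Tpt1-002, bases 32 to 61: tttccgcccgCTCCCCCCTCCCCCCgcgcg
The RefSeq windows lie at chr9:78481710-78481739 on the minus strand for Eef1a1, at chr10:81176636-81176665 on the plus strand for Eef2 and at chr7:108934401-108934430 on the plus strand for Eif3f, in GRCm38.p6. The transcript windows are on the plus strand of chromosomes 1, 15 and 14 for Eef1b2, Eif4b and Tpt1. The runs of Eif3f, Eif4b and Tpt1 are each 15 bases long. A run at least that long was present near 1.67% of all 32851 RefSeq starts, searched from 20 bases before the start, and in 2.06% of the 43975 coding transcripts searched. These shares are for a single start or transcript, whereas for all but Eif3f the printed run is the longest over more than 1. The RefSeq runs of Eif4b and Tpt1 were 7 and 6 bases long, lengths reached near 29.5% and 44.7% of RefSeq starts. The printed lengths of Eef1a1 and Eef2 were reached near 9.39% and 29.5% of RefSeq starts, and that of Eef1b2 in 49.5% of transcripts. A strict form of the tract was also searched on the gene's own strand, as a C at the annotated start followed by at least 4 bases that are each C or T. It was found at the RefSeq start of 1 of the 6 members, Eif3f, and of 2.51% of all RefSeq promoters. Of 58 ribosomal protein genes with a promoter, 14 had it (24.1%), against 3.01% of all genes with a promoter. Within 10 bases of the start the same tract was found for 2 of the 6 members, Eef1a1 and Eif3f, and in 29.7% of all promoters. Of the 10 transcripts 1 had it at the first base, Eif4b-201, as had 2.00% of all 55402 coding transcripts. That share also covers transcripts without a 5′ UTR of at least 20 bases, unlike the 10 read here. These are matches of letters at annotated starts; the starts used in these cells were not measured. ZNF384 is known to bind A-rich DNA, and the letters AAAAAA stood on either strand within the 250 bases before the start of 1 of the 6 members, Eif4b, as in 17.7% of all promoters.

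The 8 libraries held between 9381954 and 41483660 counts. Both TAF15-ZNF384 libraries and TCF3-ZNF384 replicate 1, the shallowest, held at most 9963494. Values below are normalised counts, given as CPM, the count per 1000000 counts of the library size after TMM scaling in edgeR, with replicate 1 before replicate 2. A set of 5 abundant non-coding genes, named with the methods, took 28.1% and 29.6% of the counts in TAF15-ZNF384 cells, 18.5% and 24.5% in TCF3-ZNF384 cells, 10.9% and 12.5% in full-length ZNF384 cells, and 27.2% and 33.2% in empty vector cells. Zfp384, the mouse gene of ZNF384, averaged 173 CPM in TAF15-ZNF384 cells, 481 CPM in TCF3-ZNF384 cells, 70.7 CPM in full-length ZNF384 cells and 22.8 CPM in empty vector cells, so that each construct's group lay above the empty vector. The 7 pre-B markers reported, among them Cd79a, Pax5 and Ebf1, summed to between 3557 and 4113 CPM in every library, although Rag1 alone ranged from 0.138 to 67.6 CPM. Myeloid markers summed to at most 1.62 CPM, T and NK cell markers to at most 0.215 CPM, erythroid markers to at most 0.161 CPM and stromal markers to at most 0.920 CPM. The 4 mature B and plasma cell markers found summed to between 48.2 and 70.2 CPM in full-length ZNF384 cells and to between 26.8 and 35.5 CPM in the other groups, mostly through Sdc1. The columns of the empty vector libraries lack the replicate suffix that the other 6 carry, and a batch that this could mark cannot be told apart from the group.

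Most of the 10 mRNAs were less abundant with either fusion than with the empty vector or with full-length ZNF384. Genes were called at an adjusted p under 0.05 (edgeR's quasi-likelihood test, 2-sided, Benjamini-Hochberg over all genes tested). With TAF15-ZNF384, 7 of the 10 fell relative to the empty vector, where 6.01% of all tested genes fell. That count was 2 without TAF15-ZNF384 replicate 1 or empty vector replicate 1, 3 without TAF15-ZNF384 replicate 2 or empty vector replicate 2, and 4 with limma-voom. With TCF3-ZNF384, 6 of the 10 fell relative to the empty vector, where 17.0% of all tested genes fell. Here too, fewer members and fewer of all genes were called without any 1 of the 4 libraries. The members' median log2 fold change was -0.36 without TCF3-ZNF384 replicate 1 and -0.41 without TCF3-ZNF384 replicate 2. It was -0.33 when empty vector replicate 1 was left out and -0.43 when empty vector replicate 2 was. Relative to full-length ZNF384, 7 of the 10 fell with TAF15-ZNF384 (17.9% of all tested genes) and 7 of the 10 with TCF3-ZNF384 (23.4%). With full-length ZNF384, 1 member, Eif4b, rose over the empty vector, where 10.8% of all tested genes rose. None of the 10 was called higher with a fusion over either control by edgeR, DESeq2 or limma-voom, and none was higher at an unadjusted p under 0.05 in edgeR. Over the empty vector 5.01% of all tested genes rose with TAF15-ZNF384 and 16.2% with TCF3-ZNF384, and over full-length ZNF384 15.4% and 22.2% rose. With full-length ZNF384 none of the 10 was called lower over the empty vector by edgeR, DESeq2 or limma-voom, where 9.87% of all tested genes fell, and 1, Tpt1, was lower at an unadjusted p under 0.05. These comparisons share libraries, so their counts are not independent of each other, and the members were chosen with earlier results known.

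Summed over the 10 members, the level was 4123 and 4208 CPM in TAF15-ZNF384 cells, 4180 and 4195 CPM in TCF3-ZNF384 cells, 6854 and 6271 CPM in full-length ZNF384 cells, and 6144 and 5336 CPM in empty vector cells. All 4 fusion libraries were below all 4 others on this scale, and the replicates of a fusion lay closer together than those of the other groups. The most abundant members weigh most in this sum. In empty vector cells Eef1a1 averaged 1411 CPM and Eif4b 1317 CPM, but Eef1d averaged 29.1 CPM. The share of all counts, with no scaling, was 0.404% and 0.399% with TAF15-ZNF384, 0.474% and 0.436% with TCF3-ZNF384, 0.721% and 0.707% with full-length ZNF384, and 0.552% and 0.455% with the empty vector. By that share TCF3-ZNF384 replicate 1 lay above empty vector replicate 2, so those groups overlapped. The libraries of the compared groups were fully apart, in the lower direction, for 8 members with TAF15-ZNF384 (30.3% of all tested genes) and for 9 with TCF3-ZNF384 (35.2%) against the empty vector. Against full-length ZNF384 the counts were 8 (34.5%) and 9 (36.2%). Full-length ZNF384 lay fully above the empty vector for 4 members (32.2% of all tested genes) and fully below it for 2 (26.2%).

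The median log2 fold change of the 10 members over the empty vector was -0.38 with TAF15-ZNF384, -0.36 with TCF3-ZNF384 and 0.09 with full-length ZNF384, beside 0.01, 0.01 and 0.03 over all tested genes. Over full-length ZNF384 it was -0.43 with TAF15-ZNF384 and -0.49 with TCF3-ZNF384, beside -0.02 and 0.00. The scaling of the libraries bears on these values. Under total-count scaling without the 5 non-coding genes, the median of all genes over the empty vector moved to 0.12 with TAF15-ZNF384 and 0.15 with TCF3-ZNF384. The share of called genes that were lower then went to 32.9% for TAF15-ZNF384 and 32.4% for TCF3-ZNF384 over the empty vector, in place of 54.5% and 51.2%. Against full-length ZNF384 it went to 35.0% and 34.4%, in place of 53.6% and 51.3%. A scaling shifts all genes of a comparison alike, so the members' distance from the median of all genes, over the empty vector -0.39 with TAF15-ZNF384 and -0.37 with TCF3-ZNF384, does not bear on the choice between scalings. Under total-count scaling 3 of the 10 were called lower with each fusion over the empty vector, where 3.85% of the genes tested under that scaling were lower with TAF15-ZNF384 and 11% were with TCF3-ZNF384. Over full-length ZNF384 5 of the 10 were, where 11.2% of the genes were lower with TAF15-ZNF384 and 15.7% with TCF3-ZNF384. With the 5 non-coding genes removed and TMM scaling kept, 7 members were lower over the empty vector with TAF15-ZNF384 and 7 with TCF3-ZNF384, Eif3f being added for TCF3-ZNF384.

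**Figure D1:**
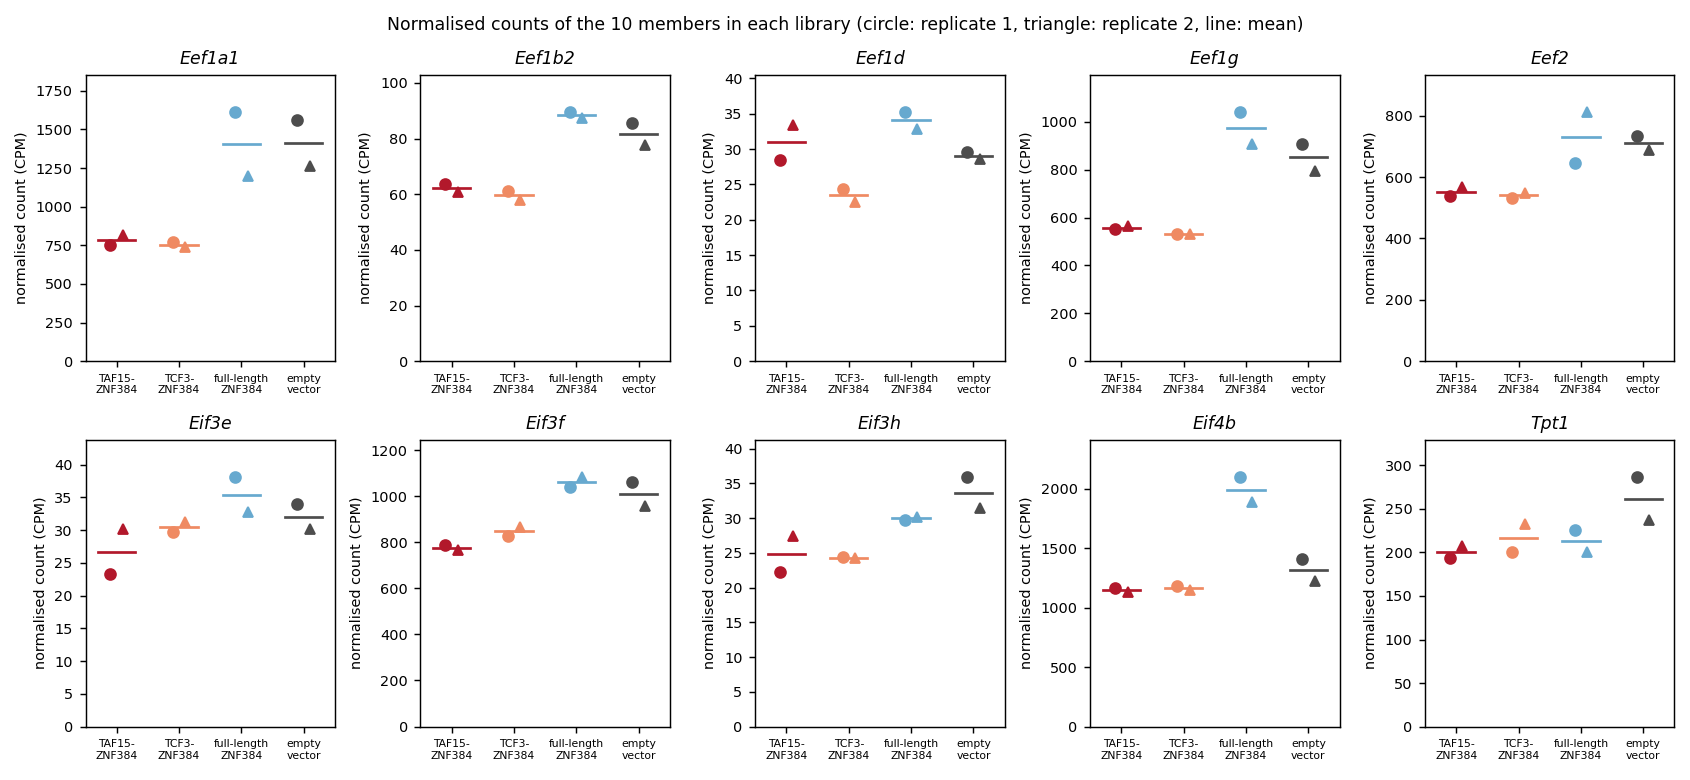
Normalised counts (CPM, y axis from 0) of each of the 10 genes in the 8 libraries, by group on the x axis; circles are replicate 1, triangles replicate 2 and lines the mean of the 2. The fusion libraries of Eef1a1, Eef1b2, Eef1g, Eef2, Eif3f, Eif3h and Eif4b all lie below the others, and Eif4b is highest with full-length ZNF384, at 2096 and 1888 CPM.

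Eef1a1 (chr9:78326256-78336958 in mm9, minus strand, protein-coding) encodes the factor that delivers aminoacyl-tRNA, and it had the largest decrease of the 10 in each comparison of a fusion with a control. It had 753 and 816 CPM in TAF15-ZNF384 cells, 773 and 737 CPM in TCF3-ZNF384 cells, 1613 and 1197 CPM in full-length ZNF384 cells, and 1558 and 1265 CPM in empty vector cells. Every fusion library was below every other library, while the replicates of the 2 other groups were far apart. Relative to the empty vector Eef1a1 fell by 0.85 ± 0.14 on the log2 scale (SE, derived from edgeR's test) with TAF15-ZNF384 (adjusted p = 0.00154). With TCF3-ZNF384 it fell by 0.90 ± 0.14 over the empty vector (adjusted p = 0.000233). These differences put it at 55.6% of the empty vector mean with TAF15-ZNF384 and at 53.5% with TCF3-ZNF384. Relative to full-length ZNF384 it fell by 0.84 ± 0.14 with TAF15-ZNF384 and by 0.90 ± 0.14 with TCF3-ZNF384. Full-length ZNF384 over the empty vector did not pass the test, with a log2 difference of -0.01 ± 0.14. All 4 calls held without any 1 library and under every other setting tried. Processed copies of Eef1a1 are known in mammalian genomes, and reads shared with such copies may have been split or dropped in the counting.

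The eEF1B complex recharges eEF1A. Its structural subunit gene, Eef1g (chr19:9041531-9052969, plus strand), followed Eef1a1. Eef1g had 551 and 564 CPM in TAF15-ZNF384 cells, 530 and 530 CPM in TCF3-ZNF384 cells, 1041 and 907 CPM in full-length ZNF384 cells, and 906 and 796 CPM in empty vector cells. All 4 fusion libraries were below the others, and both full-length ZNF384 libraries were above both empty vector libraries. Relative to the empty vector Eef1g fell by 0.61 ± 0.10 with TAF15-ZNF384 (adjusted p = 0.00169) and by 0.68 ± 0.10 with TCF3-ZNF384 (adjusted p = 0.000168). Relative to full-length ZNF384 it fell by 0.81 ± 0.10 with TAF15-ZNF384 and by 0.88 ± 0.10 with TCF3-ZNF384, where it stood at 57.2% and 54.4% of the full-length mean. These calls also held without any 1 library and under every other setting tried. The difference of full-length ZNF384 from the empty vector, 0.20 ± 0.10, did not pass the test (adjusted p = 0.190), but passed it without full-length ZNF384 replicate 2 (0.27, adjusted p = 0.0194).

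Eef1b2 (chr1:63223399-63227060, plus strand), a nucleotide exchange subunit of eEF1B, was measured at a lower level. It had 63.6 and 60.9 CPM in TAF15-ZNF384 cells, 61.3 and 58.1 CPM in TCF3-ZNF384 cells, 89.6 and 87.3 CPM in full-length ZNF384 cells, and 85.7 and 77.8 CPM in empty vector cells. The fusion libraries were again all below the others, and the replicates of each group were close. Eef1b2 fell by 0.39 ± 0.10 with TAF15-ZNF384 (adjusted p = 0.0214) and by 0.45 ± 0.10 with TCF3-ZNF384 (adjusted p = 0.00274) over the empty vector. Over full-length ZNF384 it fell by 0.51 ± 0.10 with TAF15-ZNF384 and by 0.57 ± 0.10 with TCF3-ZNF384. The call for TAF15-ZNF384 over the empty vector was lost without any 1 of the 4 libraries compared (adjusted p from 0.0541 to 0.201) and under total-count scaling. The other 3 calls held without any 1 library.

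Eef1d (chr15:75725226-75739986, minus strand) encodes the other exchange subunit, and it was the one member called between the fusions, by a call that did not hold in DESeq2 or limma-voom or without any 1 library. It had 28.5 and 33.4 CPM in TAF15-ZNF384 cells, 24.3 and 22.6 CPM in TCF3-ZNF384 cells, 35.2 and 32.9 CPM in full-length ZNF384 cells, and 29.5 and 28.6 CPM in empty vector cells. The TCF3-ZNF384 libraries were the lowest 2 of the 8, whereas those of TAF15-ZNF384 overlapped with the empty vector and with full-length ZNF384. With TCF3-ZNF384, Eef1d fell by 0.55 ± 0.11 over full-length ZNF384 (adjusted p = 0.00131), a call that held without any 1 library. Over the empty vector it fell by 0.32 ± 0.11 with TCF3-ZNF384 (adjusted p = 0.0448), and this call was lost without any 1 of the 4 libraries (adjusted p from 0.103 to 0.253), with DESeq2 (0.102) and under total-count scaling. With TAF15-ZNF384 the differences were 0.09 ± 0.11 over the empty vector and -0.14 ± 0.11 over full-length ZNF384, and neither passed the test.

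Eef2 (chr10:80639376-80645252, plus strand) encodes the translocation factor, whose modified histidine, diphthamide, is the target of diphtheria toxin. It had 538 and 567 CPM in TAF15-ZNF384 cells, 531 and 549 CPM in TCF3-ZNF384 cells, 647 and 812 CPM in full-length ZNF384 cells, and 734 and 689 CPM in empty vector cells. The fusion libraries were all below the others, and the full-length ZNF384 libraries enclosed those of the empty vector. Eef2 fell by 0.37 ± 0.11 with TAF15-ZNF384 (adjusted p = 0.0478) and by 0.40 ± 0.11 with TCF3-ZNF384 (adjusted p = 0.0127) over the empty vector. Over full-length ZNF384 it fell by 0.40 ± 0.11 with TAF15-ZNF384 and by 0.43 ± 0.11 with TCF3-ZNF384. These were calls near the threshold. Over the empty vector, TAF15-ZNF384 lost it without any 1 of the 4 libraries (adjusted p from 0.122 to 0.277) and with limma-voom (0.0576), and TCF3-ZNF384 lost it without TCF3-ZNF384 replicate 1 (0.107), TCF3-ZNF384 replicate 2 (0.0689) or empty vector replicate 1 (0.0952). Over full-length ZNF384, TAF15-ZNF384 lost it without either of its own replicates (0.112 and 0.0546) and TCF3-ZNF384 without its replicate 1 (0.0651), and the TAF15-ZNF384 call was lost with only those groups in the fit (0.0689). All 4 calls were lost under total-count scaling.

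**Figure D2:**
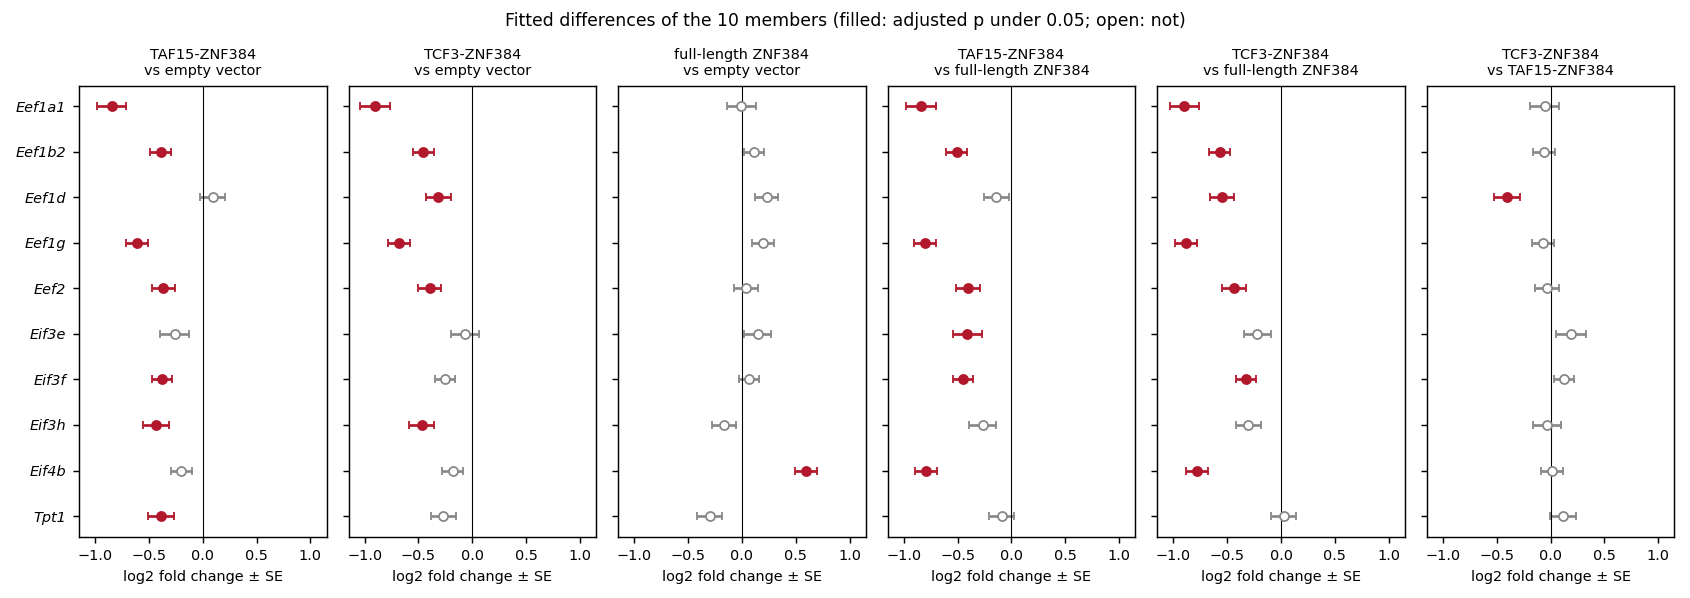
Fitted log2 fold changes ± SE (x axis, all 8 libraries in 1 fit) of the 10 genes (rows) in the 6 comparisons (panels); filled points passed the test at an adjusted p under 0.05. In the 4 panels that set a fusion against a control, 27 of the 40 points are filled and all of those lie below 0; Eif4b is the one filled point of full-length ZNF384 over the empty vector.

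The members Eif3e, Eif3f and Eif3h are subunits of eIF3. Eif3f (chr7:116077931-116086465, plus strand), an MPN-domain subunit, had by far the highest counts of them. It had 787 and 766 CPM in TAF15-ZNF384 cells, 830 and 866 CPM in TCF3-ZNF384 cells, 1039 and 1083 CPM in full-length ZNF384 cells, and 1064 and 957 CPM in empty vector cells. The fusion libraries were all below the others, and the full-length and empty vector libraries overlapped. Eif3f fell by 0.38 ± 0.09 over the empty vector (adjusted p = 0.0193) and by 0.45 ± 0.09 over full-length ZNF384 (adjusted p = 0.00247) with TAF15-ZNF384. With TCF3-ZNF384 it fell by 0.32 ± 0.09 over full-length ZNF384 (adjusted p = 0.0117). Its difference over the empty vector, -0.25 ± 0.09, missed the threshold narrowly in edgeR, while the adjusted p was 0.0245 with DESeq2 and 0.0426 with limma-voom. The TAF15-ZNF384 call over the empty vector was lost without any 1 of the 4 libraries (adjusted p from 0.0510 to 0.213). The TCF3-ZNF384 call over full-length ZNF384 was lost without either TCF3-ZNF384 replicate (0.132 and 0.0675), with only those groups in the fit (0.0541) and under total-count scaling.

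Eif3h (chr15:51618104-51697027, minus strand) encodes the other MPN-domain subunit. It had 22.3 and 27.5 CPM in TAF15-ZNF384 cells, 24.4 and 24.2 CPM in TCF3-ZNF384 cells, 29.8 and 30.2 CPM in full-length ZNF384 cells, and 35.9 and 31.5 CPM in empty vector cells. The libraries stood in 3 steps, with the fusions lowest and the empty vector highest. The difference of full-length ZNF384 from the empty vector, -0.17 ± 0.11, did not pass the test (adjusted p = 0.317). Eif3h fell by 0.44 ± 0.12 with TAF15-ZNF384 (adjusted p = 0.0371) and by 0.47 ± 0.12 with TCF3-ZNF384 (adjusted p = 0.00771) over the empty vector. Over full-length ZNF384 the difference was -0.27 ± 0.12 with TAF15-ZNF384 (adjusted p = 0.108) and -0.30 ± 0.12 with TCF3-ZNF384 (adjusted p = 0.0510), and neither passed the test. The TAF15-ZNF384 call was lost without TAF15-ZNF384 replicate 1 (0.313), empty vector replicate 1 (0.248) or empty vector replicate 2 (0.0584). It was also lost with DESeq2 (0.0687), with limma-voom (0.0560), under total-count scaling (0.111) and with libraries thinned to the shallowest (0.0521). The TCF3-ZNF384 call was lost without TCF3-ZNF384 replicate 2 (0.0628) or empty vector replicate 1 (0.0866) and under total-count scaling (0.0511). Eif3e (chr15:43081586-43114282, minus strand), known also as Int6 from mouse mammary tumour virus integrations, had 23.3 and 30.1 CPM in TAF15-ZNF384 cells, 29.6 and 31.2 CPM in TCF3-ZNF384 cells, 38.1 and 32.7 CPM in full-length ZNF384 cells, and 33.9 and 30.1 CPM in empty vector cells. Its fusion libraries overlapped with the empty vector but not with full-length ZNF384. Eif3e fell by 0.41 ± 0.13 with TAF15-ZNF384 over full-length ZNF384 (adjusted p = 0.0310), a call lost without TAF15-ZNF384 replicate 1 (0.305) or full-length ZNF384 replicate 1 (0.173), with DESeq2 (0.0648), in thinned libraries (0.0558), with only those groups in the fit (0.0846) and under total-count scaling (0.123), and its 3 other differences between a fusion and a control did not pass.

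The rest of the eIF3 complex was read beside them. Over the empty vector, 6 of the 10 other subunit genes tested fell with TAF15-ZNF384 and 8 with TCF3-ZNF384, with medians of -0.42 and -0.43. Of all tested genes 6.01% fell with TAF15-ZNF384 and 17.0% with TCF3-ZNF384. Eif3a, the largest core subunit, fell by 0.58 ± 0.12 with TAF15-ZNF384 and by 0.65 ± 0.12 with TCF3-ZNF384. Eif3c, another core subunit, fell by 0.52 ± 0.10 with TAF15-ZNF384 and by 0.67 ± 0.10 with TCF3-ZNF384. With TAF15-ZNF384 the call of Eif3a was lost without its replicate 2 or empty vector replicate 1 and that of Eif3c also without TAF15-ZNF384 replicate 1, with adjusted p up to 0.110 and 0.0860; both TCF3-ZNF384 calls held. The TAF15-ZNF384 count was smaller without any 1 of the 4 libraries compared. The TCF3-ZNF384 count was smaller without its replicate 2 or empty vector replicate 1. Fewer of all genes were called in those fits too. Over full-length ZNF384, 7 fell with TAF15-ZNF384 (17.9% of all tested genes) and 8 with TCF3-ZNF384 (23.4%). The TAF15-ZNF384 count there was smaller without its replicate 1, as was that of all genes called. With full-length ZNF384 over the empty vector, edgeR, DESeq2 and limma-voom each called 0 of the 10, and 2 had an unadjusted p under 0.05 in edgeR, both higher. Of all tested genes edgeR called 10.8% higher and 9.87% lower there. Without full-length ZNF384 replicate 2 some of the 10 were called higher, and more of all genes were called as well.

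Eif4b (chr15:101904204-101927603, plus strand) encodes the cofactor of the helicase eIF4A and is a substrate of S6 kinase, which acts downstream of mTORC1. In its case full-length ZNF384 stood apart from all other groups. Eif4b had 1163 and 1135 CPM in TAF15-ZNF384 cells, 1177 and 1144 CPM in TCF3-ZNF384 cells, 2096 and 1888 CPM in full-length ZNF384 cells, and 1411 and 1224 CPM in empty vector cells. Both full-length ZNF384 libraries were above all 6 others, and the fusion libraries were below those of the empty vector by a small margin. Eif4b rose by 0.60 ± 0.10 with full-length ZNF384 over the empty vector (adjusted p = 0.00101), to 151% of its mean. Over full-length ZNF384 it fell by 0.79 ± 0.10 with TAF15-ZNF384 (adjusted p = 6.7e-05) and by 0.78 ± 0.10 with TCF3-ZNF384 (adjusted p = 3.4e-05). Over the empty vector the differences were -0.20 ± 0.10 with TAF15-ZNF384 (adjusted p = 0.227) and -0.18 ± 0.10 with TCF3-ZNF384 (adjusted p = 0.179), and neither passed the test. The 3 calls held without any 1 library and under every other setting tried. In its transcript Eif4b-201, printed above, the 15-base pyrimidine run begins at base 11, apart from the strict tract at the first base. Transcript Eif4b-202 and the RefSeq start of Eif4b lack that strict tract.

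Tpt1 (chr14:76244900-76248332, plus strand) encodes the translationally controlled tumour protein, an abundant mRNA that was among the first seen to shift in and out of polysomes. It had 193 and 207 CPM in TAF15-ZNF384 cells, 200 and 233 CPM in TCF3-ZNF384 cells, 226 and 200 CPM in full-length ZNF384 cells, and 286 and 237 CPM in empty vector cells. All 6 libraries with a construct were below both empty vector libraries, and the construct groups overlapped with each other. Tpt1 fell by 0.39 ± 0.12 with TAF15-ZNF384 over the empty vector (adjusted p = 0.0489), a call lost without TAF15-ZNF384 replicate 1 (0.300), TAF15-ZNF384 replicate 2 (0.159) or empty vector replicate 1 (0.382), with limma-voom (0.0647) and under total-count scaling (0.0807). The differences of -0.27 ± 0.12 with TCF3-ZNF384 and -0.30 ± 0.12 with full-length ZNF384 did not pass (adjusted p = 0.0882 for TCF3-ZNF384 and 0.0860 for full-length ZNF384). That of full-length ZNF384 passed without full-length ZNF384 replicate 1 (-0.40, adjusted p = 0.0280) and under total-count scaling.

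The table also holds a pseudogene row, Tpt1-ps3, with more counts than Tpt1 itself. Its counts were between 1.54 and 2.07 times those of Tpt1 in every library. Tpt1-ps3 had 305 and 318 CPM in TAF15-ZNF384 cells, 414 and 405 CPM in TCF3-ZNF384 cells, 445 and 360 CPM in full-length ZNF384 cells, and 469 and 434 CPM in empty vector cells. The TAF15-ZNF384 libraries were below all the others. It fell by 0.53 ± 0.11 with TAF15-ZNF384 over the empty vector (adjusted p = 0.00614), and with TCF3-ZNF384 it was higher than with TAF15-ZNF384 by 0.40 ± 0.11 (adjusted p = 0.0333). How the counting split reads between these near-identical rows was not tested, and the level of Tpt1 is uncertain for that reason. With both rows summed, a setting chosen after seeing the data, the log2 fold change over the empty vector was -0.48 with TAF15-ZNF384 (adjusted p = 0.0114), -0.19 with TCF3-ZNF384 (adjusted p = 0.197) and -0.21 with full-length ZNF384 (adjusted p = 0.174).

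The fusions were also set against each other. TCF3-ZNF384 over TAF15-ZNF384 gave 1 called member, Eef1d, where 4.17% of all tested genes were lower and 5.91% higher. Eef1d fell by 0.41 ± 0.12 (adjusted p = 0.0450) in that comparison. The call was lost without any 1 of the 4 libraries (adjusted p from 0.0661 to 0.380), with DESeq2 (0.0669), with limma-voom (0.0707) and under total-count scaling (0.0648). The libraries of TCF3-ZNF384 lay fully below those of TAF15-ZNF384 for 2 members, Eef1d and Eef1g (28.2% of all tested genes), and fully above them for 1, Eif3f (29.0%). The other 9 differences lay between -0.07, of Eef1g, and 0.19, of Eif3e, with SEs between 0.09 and 0.14, and a miss of the threshold does not show that the fusions act alike on them.

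Levels of different members can be compared per kilobase of annotated exon. In empty vector cells Eef1a1 stood highest, at 566 ± 83.1 CPM per kb (SD, n = 2), followed by Eif3f at 350 ± 26.1, Eif4b at 342 ± 34.2, Eef1g at 327 ± 29.8 and Eef2 at 230 ± 10.3 CPM per kb. Eif3f, Eif4b and Eef1g did not differ beyond their spread. Tpt1 was at 110 ± 14.7 CPM per kb, and Eef1b2, Eif3h and Eif3e at 32.3 ± 2.20, 26.9 ± 2.49 and 20.8 ± 1.73 CPM per kb. Eef1d was lowest, at 4.93 ± 0.107 CPM per kb. In full-length ZNF384 cells Eif4b, at 517 ± 38.1 CPM per kb, stood level with Eef1a1, at 564 ± 118 CPM per kb. In TAF15-ZNF384 cells Eef1a1 was at 315 ± 17.7 and Eif4b at 298 ± 5.10 CPM per kb, and in TCF3-ZNF384 cells they were at 303 ± 10.3 and 301 ± 6.18 CPM per kb. By these counts per kb the members of the eEF1B complex had unequal levels, with Eef1g far above Eef1b2 and Eef1d, and so had the eIF3 subunits. How the counting treated reads shared with other copies was not tested, so these gaps need not be those of the mRNAs. The exon lengths are from GENCODE vM1, since the annotation of the authors' counts is not given in the sources used here, and they cover all annotated isoforms.

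**Figure D3:**
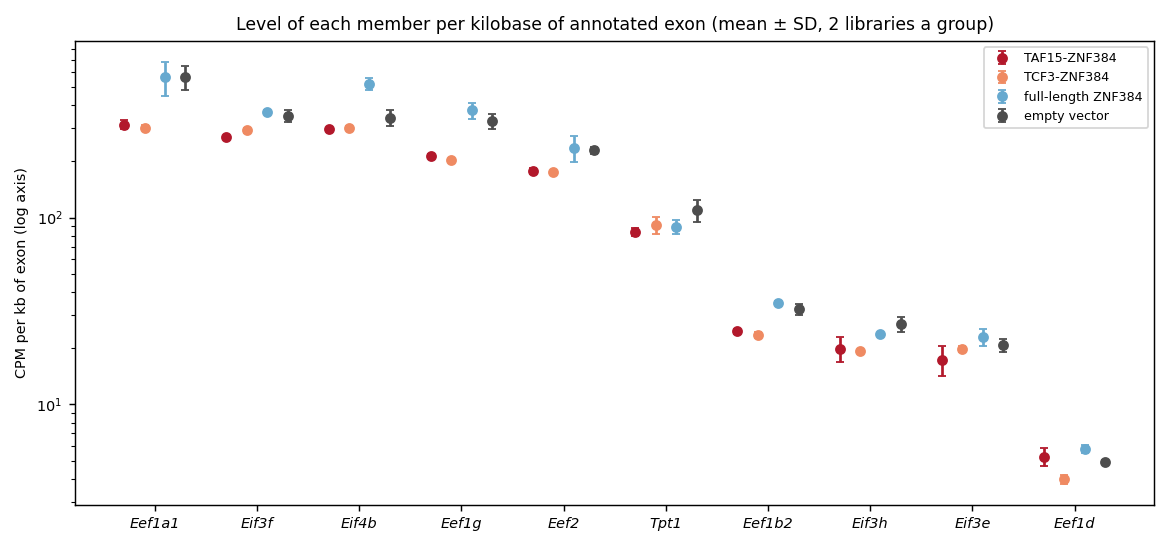
Level of each gene as CPM per kilobase of annotated exon (y axis, log scale; mean ± SD of 2 libraries) in the 4 groups, ordered by the empty vector level. Eef1a1 leads at 566 CPM per kb in empty vector cells and Eef1d is lowest at 4.93 CPM per kb.

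Other genes of the translation machinery were read as lists, beside the shares of all tested genes that fell (6.01%, 17.0% and 9.87%) and rose (5.01%, 16.2% and 10.8%) with TAF15-ZNF384, TCF3-ZNF384 and full-length ZNF384 over the empty vector. Of 79 ribosomal protein genes, the main TOP mRNAs, 49 fell with TAF15-ZNF384 over the empty vector (median -0.78), and 69 fell and 1 rose with TCF3-ZNF384 (median -1.02). These were 62.0% and 87.3% of the list called lower. With full-length ZNF384, 2 rose and 1 fell (median -0.11). Rpsa, of the small subunit, fell by 0.89 ± 0.13 with TAF15-ZNF384 and fell by 1.16 ± 0.13 with TCF3-ZNF384. Rpl26, of the large subunit, rose by 0.54 ± 0.10 with full-length ZNF384. The counts moved without single libraries. That of TAF15-ZNF384 was 5 without TAF15-ZNF384 replicate 1, 21 without its replicate 2, 19 when empty vector replicate 1 was left out and 44 when empty vector replicate 2 was. That of TCF3-ZNF384 was 46 without either of its replicates. With full-length ZNF384, 25 were lower without its replicate 1, 3 without its replicate 2, 0 when empty vector replicate 1 was left out and 5 when empty vector replicate 2 was. Short mRNAs of this family have many processed copies, so that single genes are uncertain. In the fits without 1 library, here and for the lists below, the number of all genes called moved as well.

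The list of 9 other TOP mRNAs had smaller medians. Over the empty vector 2 fell with TAF15-ZNF384 and 4 with TCF3-ZNF384, while 3 rose with full-length ZNF384, and the medians were -0.18, -0.26 and 0.17. Npm1, which encodes the nucleolar protein nucleophosmin, fell by 0.50 ± 0.11 with TCF3-ZNF384 and rose by 0.61 ± 0.11 with full-length ZNF384. Pabpc1, the poly(A)-binding protein gene, fell by 0.54 ± 0.11 with TCF3-ZNF384. Gas5, a host of small nucleolar RNAs, fell by 0.61 ± 0.11 with TCF3-ZNF384. Both TAF15-ZNF384 calls, Gas5 and Vim, were lost without any 1 of the 4 libraries (adjusted p from 0.0999 to 0.273 and from 0.141 to 0.251). The count for full-length ZNF384 was 2 when empty vector replicate 1 was left out and 1 when empty vector replicate 2 was. Relative to full-length ZNF384, 6 of the 9 fell with each fusion, where 17.9% of all tested genes fell with TAF15-ZNF384 and 23.4% with TCF3-ZNF384.

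Initiation factors outside eIF3 were mixed. Of 24, 2 fell with TAF15-ZNF384, 8 fell and 1 rose with TCF3-ZNF384, and 6 rose and 2 fell with full-length ZNF384, all over the empty vector. The 8.33% of the list that fell with TAF15-ZNF384 is near the share of all genes, while 33.3% fell with TCF3-ZNF384 and 25.0% rose with full-length ZNF384. Eif2s2, the beta subunit of eIF2, fell by 0.73 ± 0.12 with TAF15-ZNF384 and by 0.99 ± 0.12 with TCF3-ZNF384. Eif4a1, the helicase that eIF4B stimulates, rose by 0.46 ± 0.09 with full-length ZNF384 over the empty vector, and over full-length ZNF384 it fell by 0.46 with TAF15-ZNF384 and by 0.85 with TCF3-ZNF384. Eif1, a factor of start codon selection, fell by 0.49 ± 0.10 with TAF15-ZNF384, fell by 0.65 ± 0.10 with TCF3-ZNF384 and fell by 0.58 ± 0.10 with full-length ZNF384. The TAF15-ZNF384 call of Eif1 was lost without either TAF15-ZNF384 replicate or without empty vector replicate 1, with adjusted p up to 0.0884. Left-out libraries moved these counts: 3 fell with TCF3-ZNF384 without its replicate 2 and 5 without any 1 of the other libraries, and with full-length ZNF384 2 rose without its replicate 1, 10 without its replicate 2, 3 when empty vector replicate 1 was left out and 2 when empty vector replicate 2 was. With TAF15-ZNF384, Eif2s2 alone was called without TAF15-ZNF384 replicate 1, its replicate 2 or empty vector replicate 1. Of 14 other elongation and termination genes, 2 fell with TAF15-ZNF384, and 5 fell and 1 rose with TCF3-ZNF384. With full-length ZNF384, 2 rose and 1 fell, and 5 rose without its replicate 2, 0 without its replicate 1, 1 when empty vector replicate 1 was left out and 0 when empty vector replicate 2 was. With TCF3-ZNF384, 3 fell without either of its replicates, and with TAF15-ZNF384 Dph5 alone held without any 1 library. Dph5, an enzyme of the diphthamide of eEF2, fell by 0.72 ± 0.11 with TAF15-ZNF384 and by 0.78 ± 0.11 with TCF3-ZNF384. Eef2k, the kinase that inactivates eEF2, fell by 0.73 ± 0.10 with full-length ZNF384, and stood above full-length ZNF384 by 1.05 with TAF15-ZNF384 and by 1.04 with TCF3-ZNF384.

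Of 18 genes of mTORC1 and of TOP mRNA regulation, 2 rose and 3 fell with TAF15-ZNF384, 6 rose and 4 fell with TCF3-ZNF384, and 1 rose and 1 fell with full-length ZNF384 over the empty vector. With TCF3-ZNF384, 22.2% of the list fell, near the 17.0% of all genes, and 33.3% rose. With TAF15-ZNF384 16.7% fell and 11.1% rose. Mtor, the kinase itself, rose by 0.69 ± 0.10 with TAF15-ZNF384 and by 0.72 ± 0.10 with TCF3-ZNF384. Eif4ebp1, whose product is the inhibitor of eIF4E that mTORC1 phosphorylates, fell by 0.84 ± 0.10 with TAF15-ZNF384, fell by 1.65 ± 0.10 with TCF3-ZNF384 and fell by 0.78 ± 0.10 with full-length ZNF384. Its relative Eif4ebp2 rose by 0.72 ± 0.10 with TCF3-ZNF384. Larp1, the protein that binds the TOP tract and cap, fell by 0.39 ± 0.12 with TAF15-ZNF384, a call lost without any 1 of the 4 libraries (adjusted p from 0.0880 to 0.283), and by 0.51 ± 0.12 with TCF3-ZNF384, a call lost when empty vector replicate 1 was left out (0.0553). The calls of Mtor, Eif4ebp1 and Eif4ebp2 over the empty vector held without any 1 library. Over the whole list, the count that rose with TCF3-ZNF384 was 3 when empty vector replicate 1 was left out, the count that fell was 2 without any 1 of the 4 libraries, and with TAF15-ZNF384 1 rose and 1 fell without any 1 of them. With full-length ZNF384 none rose when either empty vector replicate was left out.

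**Figure D4:**
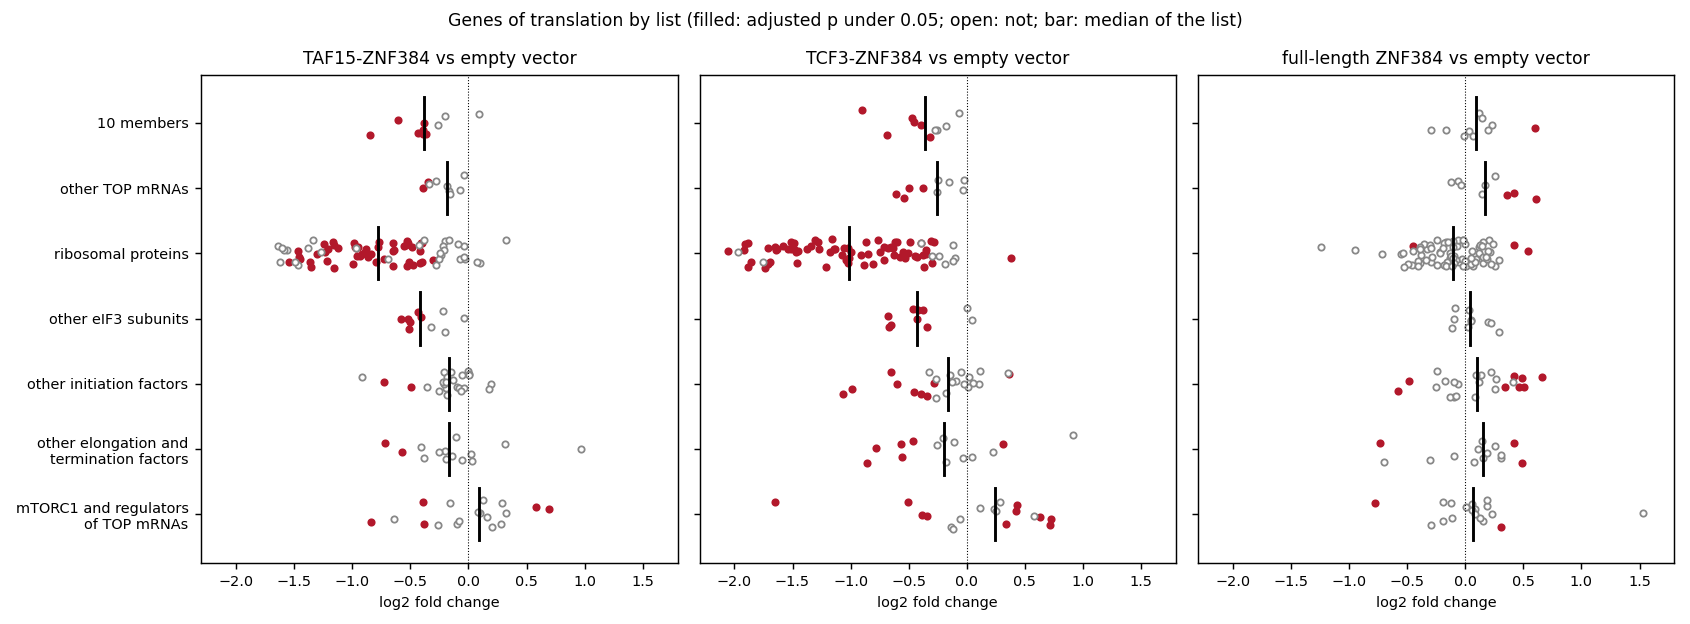
Log2 fold changes over the empty vector (x axis) of the genes in 7 lists (rows) with TAF15-ZNF384, TCF3-ZNF384 and full-length ZNF384 (panels); each point is a gene, filled where it passed the test, and bars are list medians. The ribosomal protein genes reach lowest with both fusions (medians -0.78 and -1.02), and the 10 members have medians of -0.38 and -0.36 there and 0.09 with full-length ZNF384.

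The pattern of the 10 members over the 8 libraries was taken as the mean of their scaled log2 CPM, and the 5 other genes most like it were found by Pearson's r. They were Rab35 (r = 0.991), Ctage5 (0.986), Rps3 (0.986), Olfr56 (0.984) and Was (0.984). The libraries share groups and scaling, and every fusion library held fewer counts in total than every other library. Rab35, a small GTPase of endosomal traffic, had 109 and 121 CPM with TAF15-ZNF384, 110 and 108 CPM with TCF3-ZNF384, 182 and 173 CPM with full-length ZNF384, and 170 and 148 CPM with the empty vector. All fusion libraries were below the others. Rps3, a ribosomal protein of the small subunit, had 1221 and 1287 CPM with TAF15-ZNF384, 1252 and 1217 CPM with TCF3-ZNF384, 1839 and 1803 CPM with full-length ZNF384, and 1829 and 1683 CPM with the empty vector. Was, the gene of the Wiskott-Aldrich syndrome protein, ranged from 135 to 140 CPM in the fusion libraries and from 175 to 202 CPM in the others. Olfr56 was low throughout, at no more than 4.54 CPM.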

How the data were processed

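RNA-seq libraries were made from 8 samples, 2 in each of 4 groups, and read as the table of raw counts per gene that the authors deposited. The counts were made with HTSeq 0.6.1p1 on mm9, per the submitters' processing notes, from stranded total RNA libraries, per the labels' protocols. The aligner, the annotation and the strand setting are not given in the sources used here. No column was left out, and every row named a gene.

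From these counts edgeR 4.0.16 in R 4.3.3 was run with its filter by group (12970 genes), TMM scaling and a robust quasi-likelihood fit of the 8 libraries with 1 term per group. The 6 pairwise comparisons were tested 2-sided with Benjamini-Hochberg adjustment over all tested genes, with a threshold of 0.05. The residual degrees of freedom were 4 and the biological coefficient of variation 0.0958. The script was tested on simulated data. CPM values use the TMM-scaled library sizes. Each SE of a log2 fold change was computed as its absolute value over the square root of the F statistic of its test.

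Libraries held from 9381954 to 41483660 counts. Replicates of each group differed by more than counting error. A marker gene is not reported here and was left out of the marker sums. Rack1 is listed in the table under its older symbol. The genes named are the 10 members, up to 3 per direction of each list with the smallest adjusted p, the 5 genes most like the members, and member pseudogenes; part of them is printed. The members and the lists were chosen with earlier results of these data known.

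The alternatives were DESeq2 1.42.0 size factors in edgeR, its Wald test, limma-voom (limma 3.58.1), no filter, at least 2 CPM in 2 libraries, only the 2 groups compared, a replicate block, scaling with Rmrp, Rpph1, AY036118, Gm26917 and Gm42418 (5 non-coding genes of high counts) removed, total-count scaling without them, thinning to the shallowest total, and leaving out each library. Where a left-out library leaves its group with 1, that one is assumed to vary as the other groups do. Summing Tpt1 with Tpt1-ps3 was added after seeing the data.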

Additional observations from a re-analysis of the deposited data

How the results depend on the processing

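With TAF15-ZNF384 over the empty vector, limma-voom called 4 members, total-count scaling 3, and leaving out 1 library 2 to 3. Genes called were 2746 with only the 2 groups, and 404 to 686 without 1 library, in place of 1430. With TCF3-ZNF384 over the empty vector, total-count scaling called 3 members, leaving out 1 library 3 to 5, and genes called lay between 2501 and 2855, in place of 4317. With full-length ZNF384 over the empty vector, total-count scaling called 2 members, leaving out 1 library 1 to 2, and genes called ranged from 1064 to 3814, in place of 2675. Without 1 library, TAF15-ZNF384 over full-length ZNF384 gave 5 to 7 members and 2158 to 5333 genes, in place of 4320, and TCF3-ZNF384 over full-length ZNF384 gave 5 to 7 members and 3866 to 6558 genes, in place of 5916. For TCF3-ZNF384 over TAF15-ZNF384, DESeq2, limma-voom, total-count scaling and each left-out library called 0 members, and genes called were 2548 with only the 2 groups and 371 to 646 without 1 library, in place of 1308. Fits with fewer samples have fewer residual degrees of freedom, and some of them called more genes and others fewer. The causes of these changes were not tested. Of 900 values of single members under the alternatives, 802 kept direction and side of the threshold, 63 lost the call, 12 gained it, 23 uncalled differences changed sign, and no called one did.

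Deviations of same-numbered libraries from their group means correlated between groups by 0.0136 to 0.225. Weak correlations cannot exclude that the replicate numbers pair the samples, and the labels state no pairing. A replicate block gave 7, 7 and 1 members over the empty vector for TAF15-ZNF384, TCF3-ZNF384 and full-length ZNF384, 7 and 8 over full-length ZNF384 for the fusions, and 1 between the fusions. It added Eif3f for TCF3-ZNF384 over the empty vector (-0.25, adjusted p = 0.0482) and Eif3h for TCF3-ZNF384 over full-length ZNF384 (-0.30, adjusted p = 0.0499). The block called 1825, 4655, 2999, 4653, 6111 and 1523 genes in the 6 comparisons, in place of 1430, 4317, 2675, 4320, 5916 and 1308.

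Limits are the 2 libraries per group and the shallow TAF15-ZNF384 libraries, where Eif3h had 205 and 260 counts. The non-coding share differed between groups. With those 5 genes removed under TMM scaling, members called were 7, 7, 1, 7, 7 and 1 in the 6 comparisons, with Eif3f added for TCF3-ZNF384 over the empty vector (-0.27, adjusted p = 0.0310).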
